A study of Rattus norvegicus with 64 samples.

Results

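The motile cilia genes of the airway were followed as a list of 41 named genes in the lungs of rats that had inhaled fracking sand dust or filtered air. The members were chosen by symbol for their known place in the beating cilium. The rule names no measured value, but earlier results of these data were known when it was made. All 41 symbols were found among the 30045 genes counted, and 40 passed the filter on low counts in each study. Rsph4a, a radial spoke head protein, did not pass. It had 0 counts in 46 of 64 libraries and at most 14 counts, in rat 71.

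The animals were male Sprague-Dawley rats exposed in a whole-body inhalation chamber to filtered air or to fracking sand dust at 10 or 30 mg/m3 for 6 hours a day on 4 days, and a piece of lung was taken 1, 7 or 27 days after the exposure. Each dust concentration had its own air group at each day, which gives 12 groups. The study at 10 mg/m3 had 5 rats a group at days 1 and 7 and 4 rats a group at day 27, and the study at 30 mg/m3 had 6 rats in every group. Total RNA depleted of ribosomal RNA was sequenced from each rat, so every value is a level in a piece of whole lung, in which airway epithelium is a small share. In such bulk samples fewer ciliated cells and less RNA per ciliated cell cannot be told apart. Only the numbers in the sample titles mark the libraries as separate rats, so the p-values measure the spread between these samples.

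Motile cilia are the beating projections of multiciliated cells that line the trachea and bronchi and carry mucus and trapped particles out of the lung. Each has a ring of doublet microtubules around a central pair. Outer dynein arms, fixed to the doublets by docking proteins, drive the beat, inner dynein arms shape it, and radial spokes, the nexin link and the central pair regulate it. Dynein arms are put together in the cytoplasm by assembly factors before they enter the cilium. The transcription factor Foxj1 switches on this set of genes together with factors of the RFX family, which bind the X-box, a short inverted repeat whose arm reads GTTGCTA or GTTGCCA in many ciliary promoters.

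Promoter sequence is shown because members that move together raise the question of what their starts have in common, and the choice of members did not use it. RefSeq on the GRCr8 build had 40 of the 41 members, 7 of them under another symbol, and a promoter of 250 bases before to 50 bases after the start for 30. Some genes had several promoter entries, among the members Dnah11 with 6, Dnah10 with 4 and Spag17 with 2. Such a gene was counted once, if any of its entries matched. On both strands, GTTGCTA was found for 15 of these 30 members (50%) and for 3.82% of all 27457 genes with a promoter. GTTGCCA was found in 6 (20%) against 4.86%, and either arm in 18 (60%) against 8.42%. The shorter GTTGCC, which lies inside GTTGCCA, was found in 12 (40%) against 13.1%. The forkhead motif TGTTTAC was found in 0 of 30 against 4.13% of all genes, and TGTTTGT in 2 (6.67%) against 6.88%. These are matches of letters within one window, and no binding was measured.

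The 5 promoters printed here are those of genes with an arm near the start and with roles described in the results: an assembly factor, an inner and an outer dynein arm heavy chain, a central pair protein and a tektin. Capitals mark the arm, on whichever strand it was found. The Zmynd10 window is chr8:117098779-117099078 on the plus strand, with TAGCAAC, the reverse complement of GTTGCTA, at -17 from the start. The Dnah6 window is chr4:106842315-106842614 on the minus strand, with GTTGCTA at -24. The Dnah5 window is chr2:80710936-80711235 on the plus strand, with GTTGCTA at -74. The Hydin window is chr19:55146216-55146515 on the plus strand, with GTTGCTA at -79 and TGGCAAC, the reverse complement of GTTGCCA, at -7. The Tekt2 window is chr5:143907675-143907974 on the minus strand, with GTTGCTA at -36.
Zmynd10: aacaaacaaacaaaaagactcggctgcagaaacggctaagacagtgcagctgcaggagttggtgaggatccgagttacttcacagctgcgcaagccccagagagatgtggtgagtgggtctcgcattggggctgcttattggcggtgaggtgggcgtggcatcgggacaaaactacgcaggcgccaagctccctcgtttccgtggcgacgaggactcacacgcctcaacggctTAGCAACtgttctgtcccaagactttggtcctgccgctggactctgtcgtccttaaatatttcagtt
Dnah6: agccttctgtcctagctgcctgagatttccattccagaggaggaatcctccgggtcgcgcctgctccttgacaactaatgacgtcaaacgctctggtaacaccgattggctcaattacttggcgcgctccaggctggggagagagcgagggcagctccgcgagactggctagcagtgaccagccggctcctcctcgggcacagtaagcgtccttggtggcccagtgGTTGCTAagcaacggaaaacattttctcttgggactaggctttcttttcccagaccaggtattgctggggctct
Dnah5: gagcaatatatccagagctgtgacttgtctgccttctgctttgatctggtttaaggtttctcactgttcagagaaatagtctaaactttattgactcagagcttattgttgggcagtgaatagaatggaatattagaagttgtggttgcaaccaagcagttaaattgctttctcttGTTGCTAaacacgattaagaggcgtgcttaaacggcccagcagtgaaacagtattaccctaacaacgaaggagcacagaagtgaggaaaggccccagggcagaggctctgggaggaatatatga
Hydin: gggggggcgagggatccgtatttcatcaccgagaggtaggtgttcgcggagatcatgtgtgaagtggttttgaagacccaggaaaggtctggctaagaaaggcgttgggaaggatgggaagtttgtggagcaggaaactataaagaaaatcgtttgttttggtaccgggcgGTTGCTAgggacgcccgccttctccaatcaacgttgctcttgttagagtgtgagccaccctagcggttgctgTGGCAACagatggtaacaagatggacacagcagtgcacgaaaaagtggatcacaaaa
Tekt2: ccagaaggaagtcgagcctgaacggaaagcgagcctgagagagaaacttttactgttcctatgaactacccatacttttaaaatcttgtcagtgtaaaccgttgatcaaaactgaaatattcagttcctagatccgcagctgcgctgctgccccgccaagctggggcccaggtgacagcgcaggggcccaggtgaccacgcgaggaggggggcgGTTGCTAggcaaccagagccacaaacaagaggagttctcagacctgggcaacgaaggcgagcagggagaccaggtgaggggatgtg

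Total counts per library ran from 3420235 to 12359518. The smallest library was that of dust rat 27, day 1 of the study at 10 mg/m3. Its pairs with the rats of its group were the least alike of that study's 52 within-group pairs. Their median absolute log2 differences ran from 0.487 to 0.545. The day 1 air rats 54 and 55 of the study at 30 mg/m3 stood apart from the 4 other rats of their group: the mean level of the 40 members was 0.482 and 0.528 of the study mean in them and 1.01 to 1.19 in the others. These 2 libraries and the day 27 air rats 81 and 82 were the closest of the 90 within-group pairs, with median absolute log2 differences of 0.104 and 0.0872 against 0.133 or more in every other pair. Over the members the counts of rats 54 and 55 agree within sampling noise (chi-square per degree of freedom 0.932), as do those of rats 81 and 82 (0.73), while over all genes both pairs differed by more than sampling noise (2.895 and 2.084). They were kept as separate rats. Values without rats 54 and 55, or with each pair summed, stand beside the medians, the calls and the members with the smallest p that involve them. The day 1 air rats 51 and 53 had counts on 21889 and 22077 genes, more than any other library of the study.

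Levels are given in CPM, the usual unit of read counts scaled to a common library size, after edgeR's trimmed mean of M values (TMM) scaling. They are not corrected for gene length and are compared only between rats for one gene. Mean levels ran from 1.07 CPM for Spag16, a central pair protein, to 452.3 CPM for Tppp3, a tubulin-binding protein of ciliated cells. Both the symbol pairs Dnah5 and Dnah5-2, and Dnah7 and Dnah7-2, are in the tables, so the reads of these heavy chains may be split between 2 entries and their values are uncertain. In the RefSeq annotation 6 members overlap another protein-coding gene (Dnah11, Wdr63, Rsph1, Ccdc39, Spag17 and Armc3), and the strand setting of the counting is not given in the sources used here. Markers of testis germ cells, which share many axonemal genes, summed to at most 1.045 CPM in any group, with Prm1, Tnp2 and Pgk2 at 0 throughout.

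**Figure D1:**
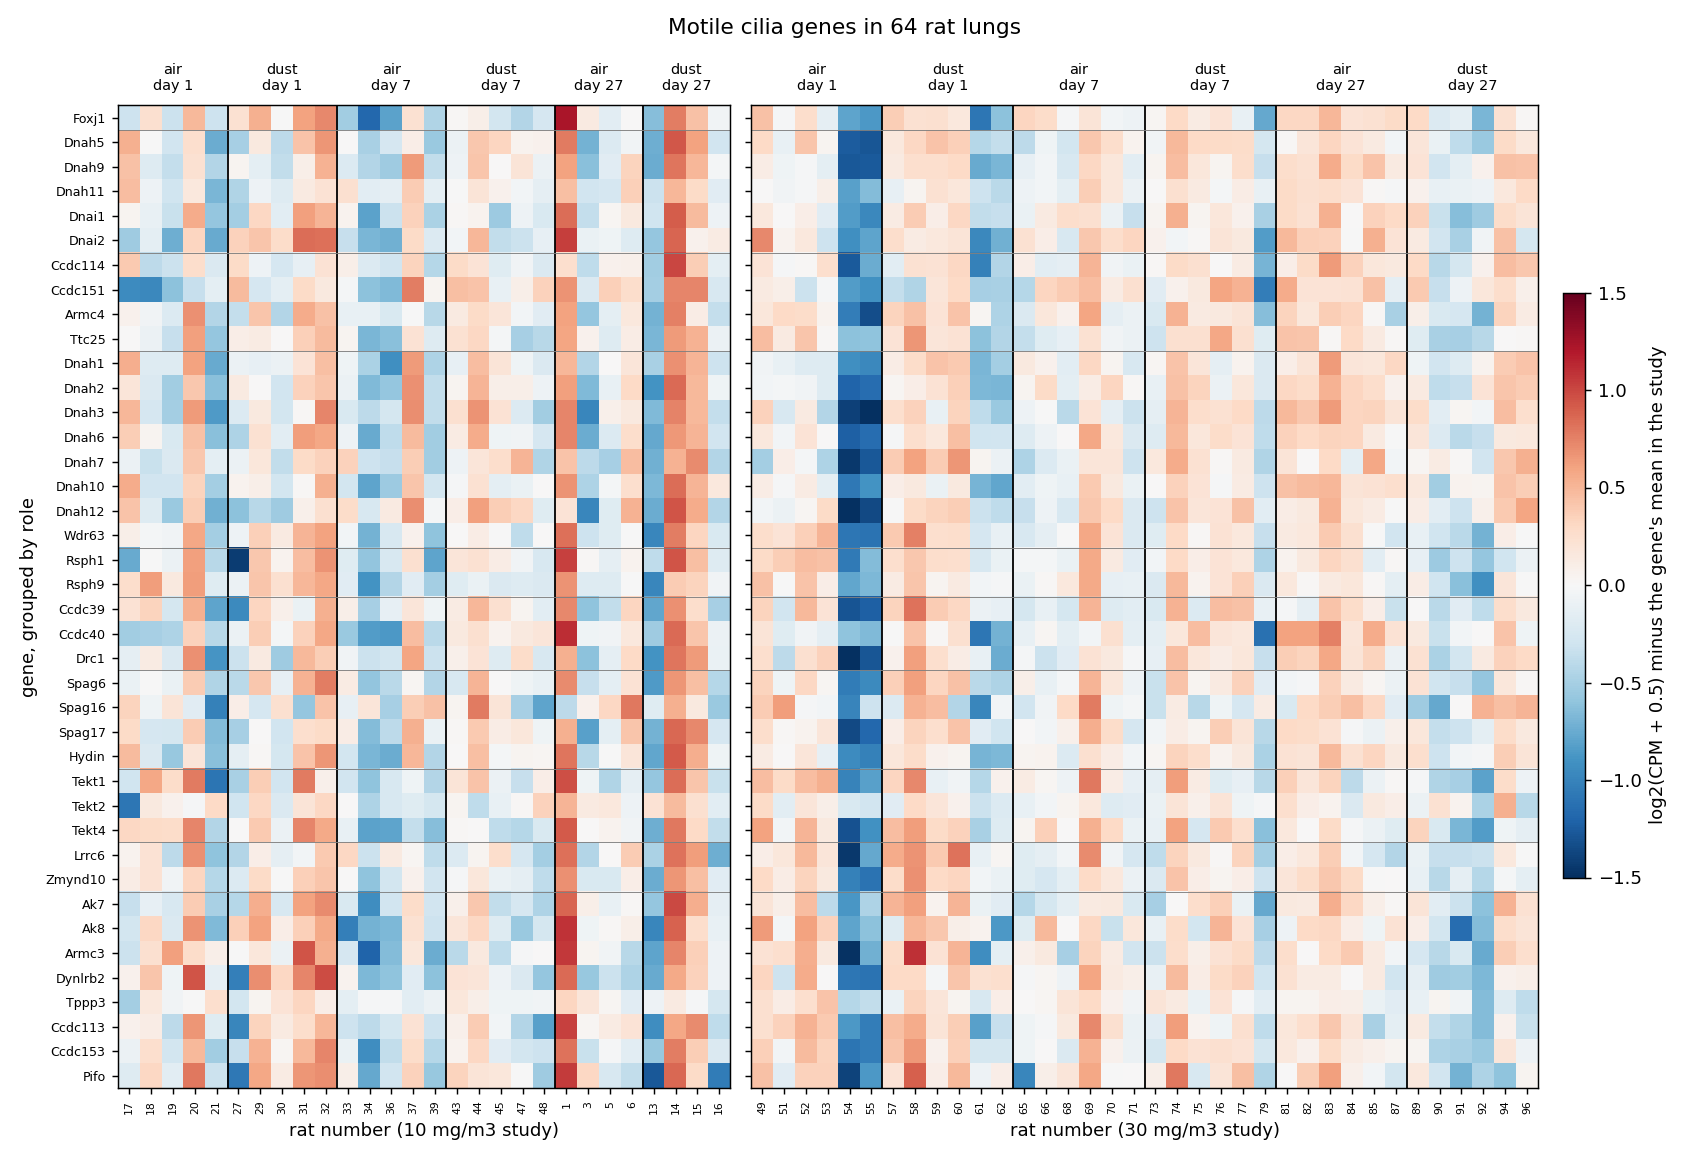
Each row is 1 of the 40 members, ordered by role, and each column 1 of the 64 rats, ordered by study, day and exposure; colour is log2(CPM + 0.5) minus the gene's mean over its study. Columns tend to have one colour from top to bottom, with rats 54 and 55 low for nearly every member.

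In the study at 10 mg/m3, 0 of 40 members passed the test at day 1, where 0.128% of the 15668 genes did (edgeR quasi-likelihood, Benjamini-Hochberg adjusted p under 0.05). The fitted log2 change was above 0 for 37 of 40 members, with a median of 0.169, against 48.4% of all genes above 0. The median was 0.0866 without dust rat 32 and 0.338 without air rat 20. Dnai2, an intermediate chain of the outer dynein arm, had the smallest p. Its levels were 12, 12.69, 11.47, 17.11 and 16.92 CPM in the dust rats and 6.297, 8.372, 5.417, 11.8 and 5.356 CPM in the air rats. All dust rats were above 4 of the 5 air rats, and air rat 20 lay inside the range of the dust rats. The means were 14.04 ± 2.76 and 7.45 ± 2.72 CPM (SD, n = 5), a log2 difference of 0.92 ± 0.28 (SE) that did not pass over all genes (adjusted p = 0.107). Ccdc151, an outer arm docking protein, had a log2 difference of 0.80 ± 0.33 (adjusted p = 0.187), and Ccdc40, part of the ruler that spaces the inner arms and spokes, one of 0.55 ± 0.27 (adjusted p = 0.268). At an unadjusted p under 0.05 there were 2 members, both higher with dust, against 9.27% of all genes.

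Foxj1, the regulator of the set, did not pass either. It was at 31.99, 39.68, 27.19, 41.67 and 45.18 CPM in the dust rats of day 1 and at 21.96, 32.23, 21.79, 38.43 and 21.93 CPM in the air rats. The ranges overlapped, with air rats 18 and 20 above the lowest dust rat, and the log2 difference was 0.45 ± 0.28 (adjusted p = 0.383). Among the most abundant members of the other roles, Rsph1 was at 3.999, 15.48, 11.97, 16.05 and 18.7 CPM in the dust rats and 6.604, 11.51, 10.83, 17.99 and 8.489 CPM in the air rats, with the lowest and the highest of the 10 both in the dust group. The lowest level rests on 13 counts, in dust rat 27, the smallest library. Zmynd10 was at 21.84, 30.97, 25.06, 32.58 and 33.73 CPM in the dust rats and 27.18, 29.51, 24.25, 31.65 and 18.69 CPM in the air rats, which overlapped over most of their range (log2 difference 0.15 ± 0.21, adjusted p = 0.73). Hydin, Dnah12, Dnah11, Ccdc39, Tekt1, Ttc25 and Tppp3 had log2 differences between -0.14 and 0.28, all with an SE of 0.12 or more. Airway secretory cell genes lay on the same side as the cilia genes: the 14 tested had a median log2 difference of 0.572 with 13 above 0, and their summed level was 3319 to 5147 CPM in dust rats and 2178 to 4183 CPM in air rats. Alveolar type 2 genes had 9 of 10 above 0 (median 0.22), and heart muscle genes 1 of 10 (median -0.287). Their part in the cilia values was not tested.

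At day 7 of the study at 10 mg/m3, 0 members passed, where 0% of all genes did, and 0 had an unadjusted p under 0.05, against 3.96% of all genes. The median log2 difference was 0.236, with 37 of 40 above 0 against 48% of all genes, and it was 0.142 without dust rat 44 and 0.379 without air rat 37. Ccdc40 was at 19.25, 20.58, 18.02, 19.29 and 19.81 CPM in the dust rats and at 11.68, 9.527, 9.373, 24.07 and 13.04 CPM in the air rats. The dust rats lay close together, above 4 air rats and below air rat 37, with a log2 difference of 0.53 ± 0.28 (adjusted p = 0.996). Tekt4, a tektin filament protein inside the doublets, had a log2 difference of 0.35 ± 0.27, Dnah5, an outer arm heavy chain, 0.39 ± 0.31, and Foxj1 0.32 ± 0.29, each with an adjusted p of 0.996. Foxj1 had 0.189 without air rat 34 and 0.57 without air rat 37. The secretory genes again lay on the same side, with a median of 0.464 and 13 of 14 above 0. Other lists lay further from 0: heart muscle genes had a median of 1.54 with 10 of 10 above 0, and mesothelial genes one of -0.889 with 0 of 6 above 0. The summed heart muscle genes ran from 158.2 to 1984 CPM in dust rats and from 138.9 to 1308 CPM in air rats. The part of these tissues in the cilia values was not tested.

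At day 27 of the same study 0 members passed, where 0% of all genes did, and 0 had an unadjusted p under 0.05, against 2.36% of all genes. The members' differences lay on both sides of 0. The median was 0.0138, with 22 of 40 above 0 against 46.9% of all genes. Foxj1 was at 17.3, 46.98, 37.29 and 26.2 CPM in the dust rats and at 64.71, 30.1, 24.42 and 27.38 CPM in the air rats. Dust rat 13 was the lowest of all 8 and air rat 1 the highest, and the groups overlapped (log2 difference -0.20 ± 0.31, adjusted p = 1). Among the dust rats, rat 13 was below its group's median for 40 of 40 members and rat 14 above it for 40 of 40, and air rat 1 was the highest of its group for 37. The mean level of the 40 members ran from 0.637 to 1.67 of the study mean in the dust group, and the median log2 difference was -0.223 without dust rat 14 and 0.269 without air rat 1. The smallest p belonged to Tppp3 (-0.15 ± 0.13), Ccdc114, a docking protein (0.29 ± 0.25), and Ccdc113 (-0.27 ± 0.32), each with an adjusted p of 1. Heart muscle genes had a median of -0.969 with 0 of 10 above 0, which was not tested against the cilia values.

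Averaged over the 3 days, 0 of 40 members passed at 10 mg/m3, where 0.0319% of all genes did. The median log2 difference was 0.152, with 36 of 40 above 0 against 47.2% of all genes, and it was 0.0642 without dust rat 14. Dnai2 had a mean log2 difference of 0.38 ± 0.17 (adjusted p = 0.518), Ccdc40 one of 0.32 ± 0.16 and Ccdc151 one of 0.37 ± 0.19 (adjusted p = 0.548 for both). No member's dust difference depended on the day past the threshold, where 0% of all genes did, and the smallest adjusted p was that of Dnai2 (0.69).

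**Figure D2:**
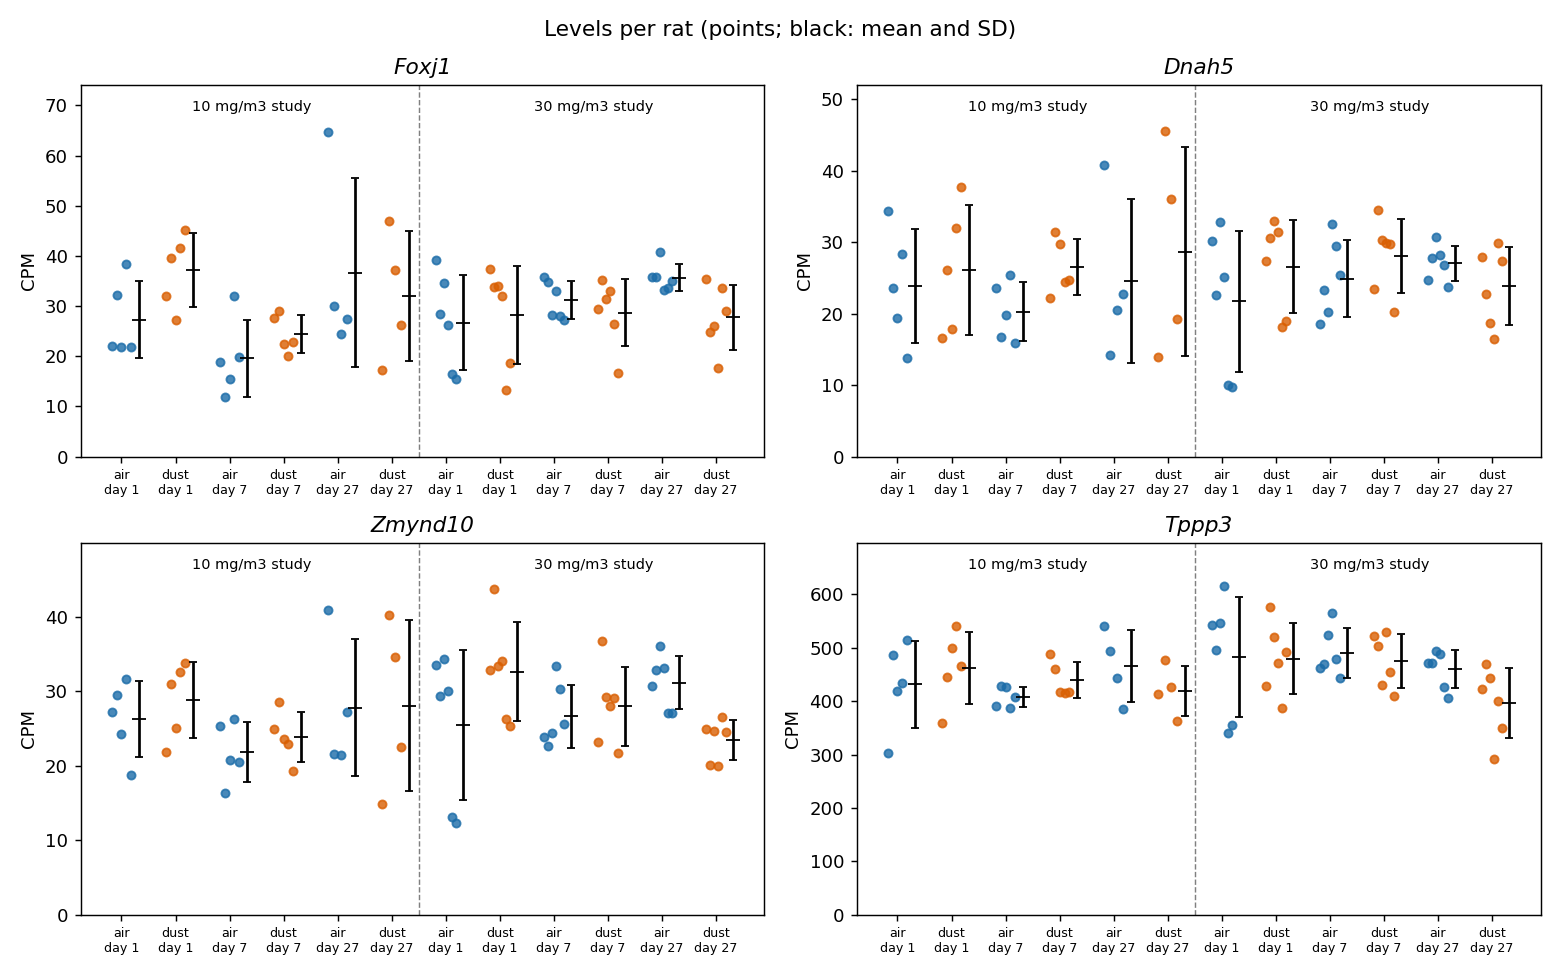
Levels in CPM of Foxj1, Dnah5, Zmynd10 and Tppp3 in each of the 64 rats, by group; points are rats and bars the mean and SD of the group. Air and dust points overlap within nearly every pair of groups, and Zmynd10 at day 27 of the study at 30 mg/m3 is the pair without overlap.

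At 30 mg/m3, 0 of 40 members passed at day 1, where 0% of the 15551 genes did. The fitted log2 difference was above 0 for 38 of 40 members, with a median of 0.294, against 55.1% of all genes above 0. This median rested on rats 54 and 55: it was -0.0491 without both air rats, and 0.141 without rat 55 alone. Dnah7, an inner arm heavy chain, had the smallest p, with lowest, median and highest levels of 3.738, 5.361 and 6.642 CPM in dust rats and 1.157, 2.735 and 4.357 CPM in air rats. The ranges overlapped at their edge. The means were 5.27 ± 1.17 and 2.71 ± 1.30 CPM (SD, n = 6), a log2 difference of 1.00 ± 0.24 with an adjusted p of 0.161 by edgeR. It passed by DESeq2 (adjusted p = 0.0377) and without air rats 51 and 53 (1.23, adjusted p = 0.00863), and was 0.63 without rats 54 and 55 (adjusted p = 0.672). Its partner entry Dnah7-2, with lowest, median and highest levels of 34.64, 47.01 and 54.9 CPM in dust rats and 14.09, 40.2 and 43.37 CPM in air rats, had a log2 difference of 0.51 ± 0.20 (adjusted p = 0.256).

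The next members by p on day 1 were Dnah1, an inner arm heavy chain (0.44 ± 0.18, adjusted p = 0.261), and Lrrc6, an assembly factor (0.58 ± 0.24, adjusted p = 0.279). With Dnah7 they were the 3 members at an unadjusted p under 0.05, all higher with dust, against 7.74% of all genes. Without rats 54 and 55 the log2 difference was 0.22 for Dnah1 (adjusted p = 0.859) and 0.212 for Lrrc6 (adjusted p = 0.889). Foxj1 ran from 13.27 to 37.31 CPM in dust rats with a median of 32.87, and from 15.51 to 39.18 CPM in air rats with a median of 27.22. The ranges nearly coincided, and the log2 difference was 0.10 ± 0.21 (adjusted p = 0.841). It turned to -0.17 without rats 54 and 55. The summed secretory cell genes, at 2568 to 3568 CPM in dust rats and 2559 to 3883 CPM in air rats, also overlapped. Alveolar type 1 genes had 0 of 9 above 0, with a median of -0.175.

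At day 7 of the study at 30 mg/m3, 0 members passed, where 0.0643% of all genes did, and 0 had an unadjusted p under 0.05, against 4.99% of all genes. The median log2 difference was 0.0405, with 23 of 40 above 0 against 49.5% of all genes, and it was -0.0409 without dust rat 74. Ttc25, an outer arm docking protein, ran from 7.375 to 14.09 CPM in dust rats with a median of 11.06, and from 7.139 to 10.95 CPM in air rats with a median of 8.586. The ranges overlapped, with a log2 difference of 0.26 ± 0.19. The inner arm heavy chains Dnah3 and Dnah7 had 0.27 ± 0.22 and 0.27 ± 0.23, and the adjusted p was 0.959 for all 3. Foxj1 had -0.11 ± 0.21. Among the marker lists, heart muscle genes had a median of -2.175 with 0 of 11 above 0, and 2 of them passed, lower with dust. Airway secretory genes had a median of -0.212 with 3 of 14 above 0, and alveolar type 2 genes one of 0.0357 with 8 of 10 above 0. The part of these cell types in the cilia values was not tested.

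At day 27 all 40 tested members had a fitted level below that of the air rats, against 49.3% of all genes, though 0 of 40 passed, where 0% of all genes did. The median log2 difference was -0.237. It stayed between -0.322 and -0.198 when any one rat of the 2 groups was left out, and between -0.272 and -0.22 under the other normalizations, tools and the summing of rats 81 and 82. The members are not independent of one another, since their levels move together from rat to rat, as described for the single rats. At an unadjusted p under 0.05 there were 4 members, all lower with dust, against 1.84% of all genes.

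Zmynd10, an assembly factor for dynein arms, was the 1 member whose groups did not overlap at day 27, which held for 0.167% of all genes in the same direction. Its lowest, median and highest levels were 19.99, 24.56 and 26.56 CPM in dust rats and 27.09, 31.75 and 36.01 CPM in air rats. Every dust rat was below every air rat. The log2 difference was -0.41 ± 0.19 (95% interval -0.786 to -0.0322, adjusted p = 0.62).

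Ttc25 had the smallest p of that day, with lowest, median and highest levels of 6.416, 7.495 and 9.426 CPM in dust rats and 9.393, 10.9 and 12.71 CPM in air rats. The groups met at the edge. The means were 7.78 ± 1.38 and 10.98 ± 1.51 CPM (SD, n = 6), a log2 difference of -0.51 ± 0.19 (95% interval -0.902 to -0.114, adjusted p = 0.519). Ccdc40 had a log2 difference of -0.47 ± 0.20 (adjusted p = 0.57) and Rsph1, a spoke head protein, one of -0.44 ± 0.19 (adjusted p = 0.581).

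Foxj1 at day 27 had lowest, median and highest levels of 17.7, 27.48 and 35.37 CPM in dust rats and 33.11, 35.37 and 40.83 CPM in air rats. The groups overlapped at dust rats 89 and 94, and the other dust rats were below all air rats. The log2 difference was -0.36 ± 0.21 (95% interval -0.787 to 0.0682, adjusted p = 0.763). By role, the differences ran from -0.18 to -0.16 in the central pair proteins, from -0.40 to -0.13 in the outer arm subunits, from -0.34 to -0.02 in the inner arm subunits, from -0.32 to -0.05 in the tektins and from -0.51 to -0.17 in the docking proteins. Dnah12, an inner arm heavy chain with 96.37 to 180.4 CPM in dust rats and 118.6 to 171.2 CPM in air rats, had -0.04 ± 0.23.

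The most abundant members of the other roles overlapped between the groups at day 27. Rsph1 had lowest, median and highest levels of 8.697, 10.61 and 12.44 CPM in dust rats and 11.79, 14.17 and 16.62 CPM in air rats, and only its edges met. Hydin had 89.75, 118.5 and 144.3 CPM in dust rats and 123.1, 130.2 and 156.1 CPM in air rats, with a log2 difference of -0.18 ± 0.18 (adjusted p = 0.934). Tekt1 had 8.24, 12.32 and 17.94 CPM in dust rats and 11.11, 15.91 and 19.15 CPM in air rats, with -0.32 ± 0.24 (adjusted p = 0.868). The ranges overlapped for both, with the lowest rat in the dust group and the highest in the air group. The outer arm heavy chain Dnah11, the ruler protein Ccdc39 and Tppp3 had log2 differences of -0.13 ± 0.12, -0.14 ± 0.24 and -0.21 ± 0.12, with adjusted p of 0.931, 0.98 and 0.728.

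The marker lists beside this result differed among themselves. The 14 airway secretory genes had a median log2 difference of -0.00948 with 7 above 0, though their sums were 2863 to 3912 CPM in dust rats and 3545 to 4586 CPM in air rats. Genes of airway cartilage summed to 10.02 to 18.62 CPM in dust rats and 6.928 to 11.02 CPM in air rats, and mesothelial genes to 194.1 to 318.2 CPM and 208.8 to 320.4 CPM. Of the 6 mesothelial genes, 0 had a log2 difference above 0, with a median of -0.224, near that of the cilia genes. Alveolar type 1 genes had 0 of 9 above 0 (median -0.0688) and alveolar type 2 genes 1 of 10 (median -0.0509), while heart muscle genes had 10 of 11 above 0 (median 0.292). The part of the sampled piece of lung in the cilia values was not tested.

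**Figure D3:**
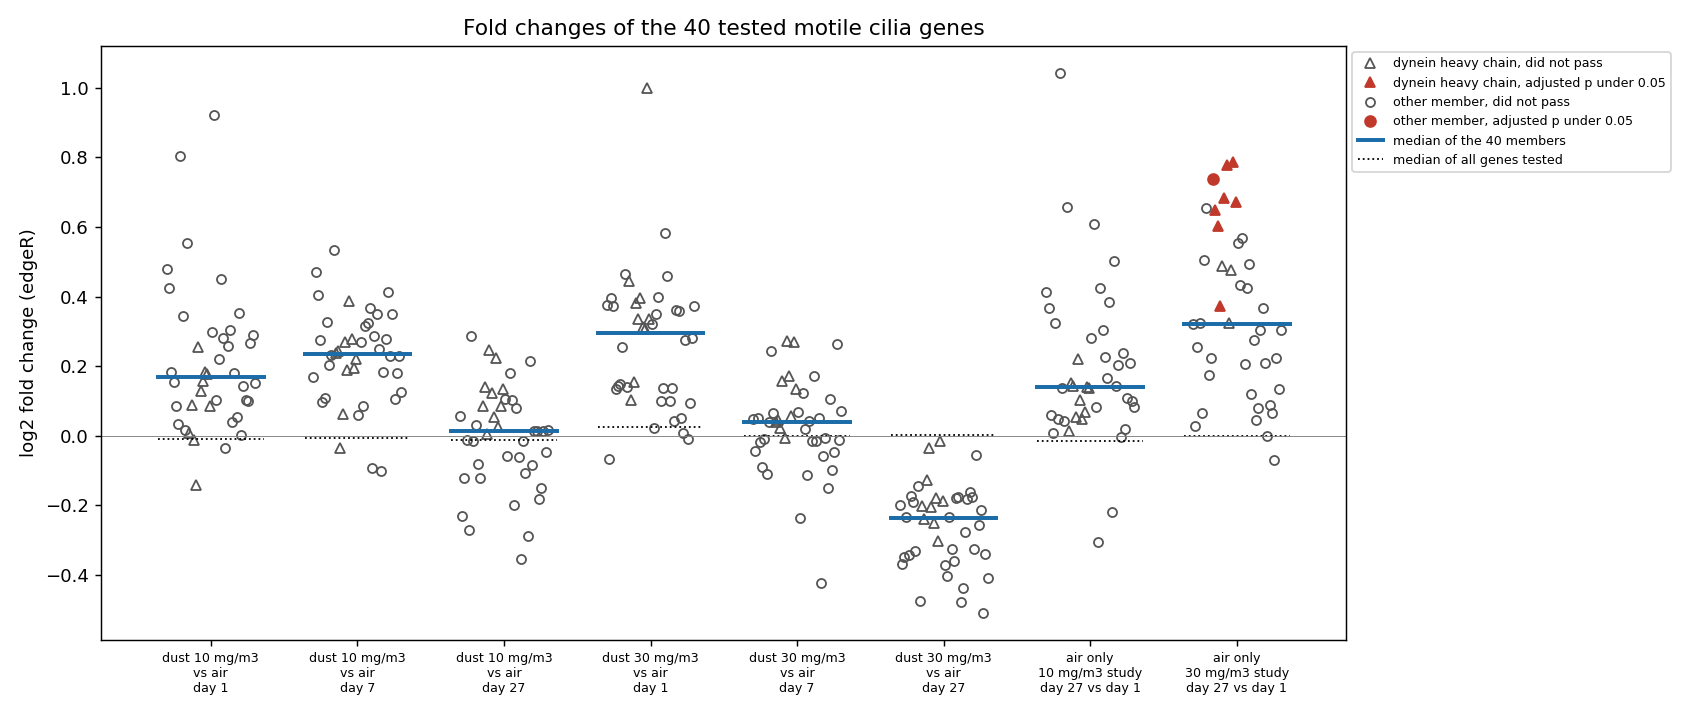
Log2 difference of each of the 40 tested members in 8 comparisons; triangles are the 10 dynein heavy chains, circles the other members, red marks an adjusted p under 0.05, the blue line is the members' median and the dotted line the median of all genes. All points of dust against air at 30 mg/m3, day 27, lie below 0, and red points occur only in air rats of that study at day 27 against day 1.

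Averaged over the 3 days at 30 mg/m3, 0 members passed, where 1.2% of all genes did. The median log2 difference was 0.0146, with 23 of 40 above 0 against 52.3% of all genes, and -0.0875 without rats 54 and 55. Dnah7 had 0.42 ± 0.13 with an adjusted p of 0.0974 by edgeR. It passed by DESeq2 (adjusted p = 0.0463) and without air rats 51 and 53 (adjusted p = 0.0245), and did not pass without rats 54 and 55 (0.293, adjusted p = 0.251) or with each pair summed (0.371, adjusted p = 0.204). The partner entry Dnah7-2 had 0.19 ± 0.11 by edgeR with all rats (adjusted p = 0.381). Dnai2 had -0.20 ± 0.13 (adjusted p = 0.412) and Ccdc39, the partner of Ccdc40 in the ruler, 0.19 ± 0.14 (adjusted p = 0.479). Without rats 54 and 55 these were -0.306 and 0.0665. No member's dust difference depended on the day past the threshold, where 0% of all genes did; the smallest adjusted p was 0.794, for Dnah7.

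The dust difference at 30 mg/m3 was also set against that at 10 mg/m3 in one model of all 64 libraries, with each study's own air rats as its base. Of 40 members, 0 passed at day 1, where 10.4% of all genes did, and 0 at day 7 and at day 27, where 0% did. At day 1 Dnai2 had a difference between the concentrations of -0.88 (adjusted p = 0.11) and Dnah7 one of 0.84 (adjusted p = 0.131). The median over the members was 0.111 at day 1 and -0.239 without rats 54 and 55, when Dnai2 had -1.23 (adjusted p = 0.0769) and Dnah7 0.423 (adjusted p = 0.556). At day 7 Tekt1, a tektin, had -0.56 (adjusted p = 0.735). At day 27 the difference was below 0 for 39 of 40 members, against 49.5% of all genes, with a median of -0.302 that ran from -0.568 to -0.00336 when single rats were left out. The smallest p at day 27 were those of Ttc25 (-0.54), Zmynd10 (-0.44) and Dnai1, an outer arm intermediate chain (-0.49), all with an adjusted p of 1. Over the mean of the days 0 members passed, where 2.09% of all genes did, with Dnai2 at -0.58 ± 0.22 (adjusted p = 0.11), or -0.694 without rats 54 and 55 (adjusted p = 0.107). The median over the members was -0.121, and -0.251 without them. The 2 concentrations were given in separate studies, so the concentration and the study cannot be told apart beyond what each study's air rats account for.

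Time after the exposure was compared within the air rats, which had inhaled no dust. In the study at 30 mg/m3, 8 of 40 members rose from day 1 to day 27 and 0 fell, where 12.9% of all genes passed, 5.55% higher and 7.36% lower. They were the inner arm heavy chains Dnah1, Dnah2, Dnah3, Dnah7 and Dnah10, the outer arm heavy chains Dnah9 and Dnah11, and Ccdc40. The median log2 difference of all 40 was 0.322, with 39 above 0 against 50.1% of all genes. All 8 calls were lost without the day 1 air rats 54 and 55, when the median was -0.0233. In that setting 3994 genes were called over the whole table, against 2007 with all rats.

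Dnah1 had lowest, median and highest levels of 29.74, 51 and 56.49 CPM at day 1 and 62.56, 66.63 and 91.53 CPM at day 27. Every rat of day 27 was above every rat of day 1. The log2 difference was 0.65 ± 0.18 (adjusted p = 0.0159), and 0.427 without rats 54 and 55 (adjusted p = 0.068). Ccdc40 had levels of 10.67, 15.38 and 19.86 CPM at day 1 and 19.56, 26.03 and 29.5 CPM at day 27, meeting at the edge. Its log2 difference was 0.74 ± 0.20 (adjusted p = 0.0167), and 0.558 without the 2 rats (adjusted p = 0.0621).

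Dnah3 ran from 19.8 to 73.13 CPM at day 1 with a median of 45.38, and from 65.79 to 90.08 CPM at day 27 with a median of 74.22. Only the top of the day 1 range reached the day 27 rats, and the log2 difference was 0.78 ± 0.22 (adjusted p = 0.0205). Dnah2 had 0.68 ± 0.20 (adjusted p = 0.02), Dnah7 0.79 ± 0.24 (0.0253), Dnah10 0.60 ± 0.18 (0.028), Dnah9 0.67 ± 0.21 (0.0299) and Dnah11 0.37 ± 0.12 (0.0427). Without rats 54 and 55 these values were 0.43 for Dnah3, 0.389 for Dnah2, 0.415 for Dnah7, 0.339 for Dnah10, 0.362 for Dnah9 and 0.173 for Dnah11. With all rats, the partner entry Dnah7-2 had 0.42 ± 0.19 and did not pass (adjusted p = 0.138). The groups did not overlap for Dnah1, Dnah2, Dnah9 and Dnah10, which held for 2.26% of all genes in this direction.

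By role, the 10 dynein heavy chains had log2 differences from 0.33 to 0.79 with a median of 0.626, and 7 of them passed. The other 30 members had a median of 0.24, and 1 passed. The spoke proteins lay at 0.05 and 0.08 and the 3 tektins between 0.00 and 0.09, so Tekt1, with medians of 19.3 CPM at day 1 and 15.91 CPM at day 27, had a log2 difference of 0.00 ± 0.24. Tppp3 had -0.07 ± 0.12, Foxj1 0.43 ± 0.21 (adjusted p = 0.168) and Hydin, a central pair protein, 0.49 ± 0.18 (adjusted p = 0.0619). Foxj1 had 0.158 without rats 54 and 55 (adjusted p = 0.615). The difference between the heavy chains and the others was not tested. With rats 54 and 55 summed as 1 library and rats 81 and 82 as another, 1 member passed, Dnah1 (adjusted p = 0.0356). Leaving out single rats gave 5 to 11 calls, with 5 without rat 55 or rat 83.

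Other cell types differed from day 1 to day 27 too. Of 10 genes of airway and vessel smooth muscle, 4 rose and 9 had a log2 difference above 0, with a median of 0.379, and their sum was 1007 to 1568 CPM at day 1 and 1271 to 1626 CPM at day 27. Of 6 mesothelial genes, 1 fell and 0 lay above 0, with a median of -0.515. The secretory cell genes lay mostly below 0, though 1 rose: 3 of 14 had a log2 difference above 0 in this comparison, with a median of -0.286, although their sum was 2559 to 3883 CPM at day 1 and 3545 to 4586 CPM at day 27. In rats 54 and 55 the mean log2 deviation of the secretory genes from the study was -0.933 and -0.851, the lowest of the study, next to the low cilia values. The part of the 2 rats' sampled tissue in the result was not tested. Between day 1 and day 27 in air rats of the study at 10 mg/m3, 0 members passed, where 2.97% of all genes did. The median there was 0.141 with 37 of 40 above 0 against 47.4% of all genes, and -0.0427 without air rat 1. Ccdc151 had the smallest p (1.04 ± 0.34, adjusted p = 0.0843), then Ccdc40 (0.66 ± 0.28, adjusted p = 0.199), which had 0.291 without air rat 1.

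**Figure D4:**
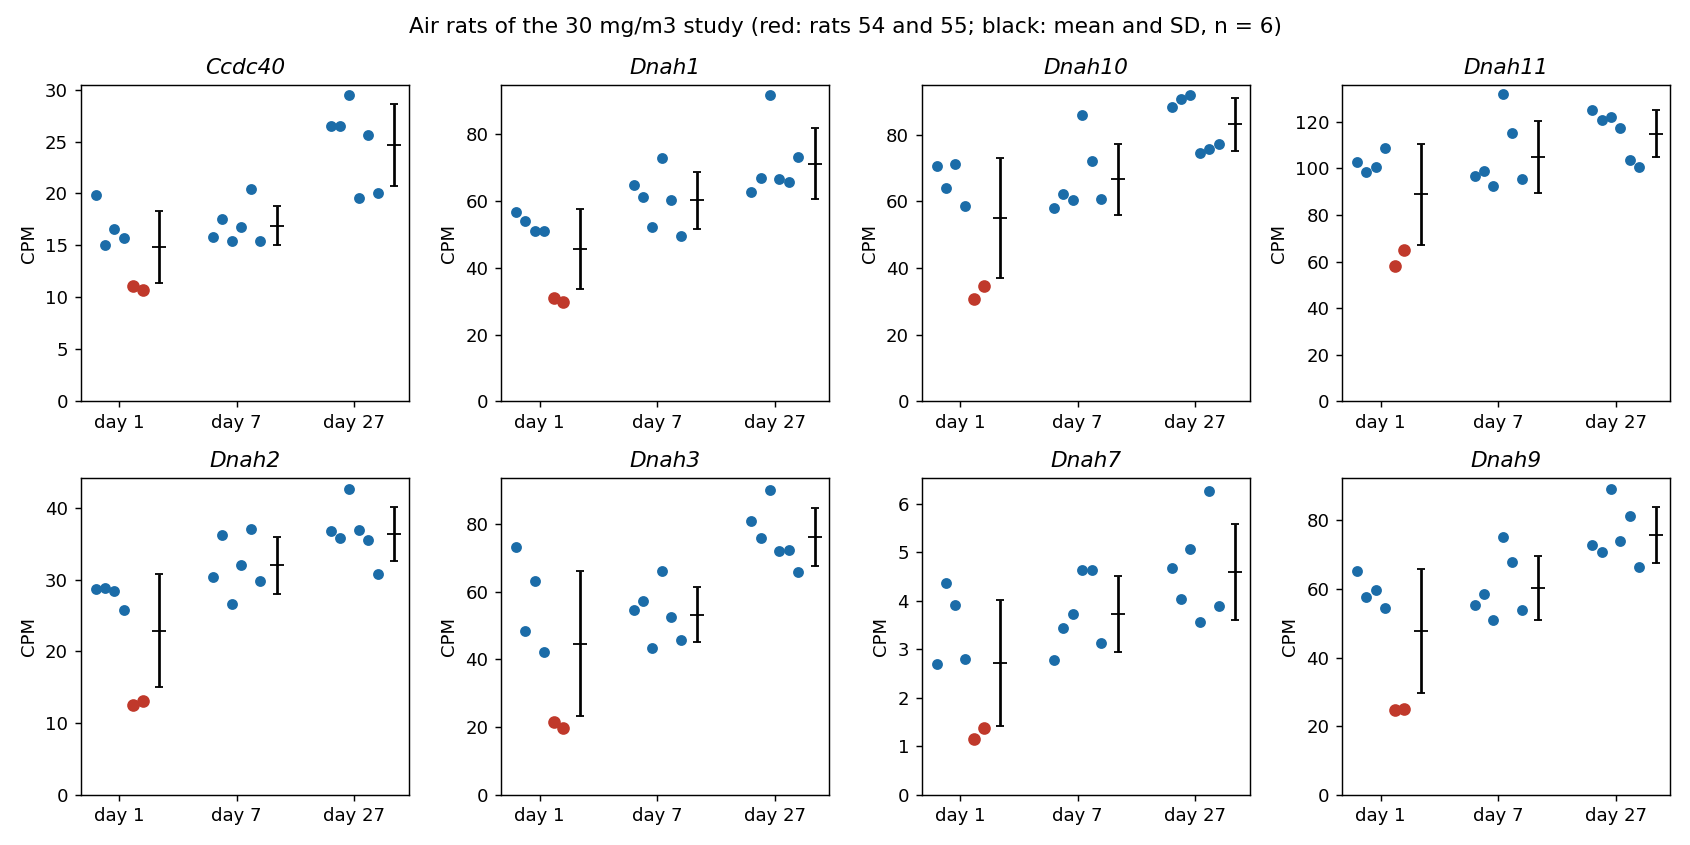
Levels in CPM of the 8 members that passed in the air rats of the study at 30 mg/m3, at days 1, 7 and 27; each point is a rat, and rats 54 and 55 of day 1 are red. Both red points are low at day 1 in nearly every panel, and the 6 rats of day 27 lie above most day 1 rats.

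From rat to rat within a group, the members varied more than most genes. The median within-group SD of their log2 level was 0.458 in the study at 10 mg/m3, against 0.223 for all genes, with 39 of 40 members above that value. In the study at 30 mg/m3 it was 0.389 against 0.206, with 40 of 40 above. They also varied together. Each member's side of its group's median was compared with the side of the median of the other members. Members lay on the same side in a median of 19.5 of up to 23 libraries in the first study. In the second study they did so in a median of 29 of 36. Zmynd10 did so in 23 of 23 libraries at 10 mg/m3, and Dnah11, Dnah12, Tekt4 and Ccdc153 in 33 of 36 at 30 mg/m3. The least alike were Spag16, in 12 of 20 and 19 of 36, and Tppp3, in 12 of 19 and 23 of 36, a count that Dnai2 and Dnah7 shared at 30 mg/m3. Spag16 had at most 22 counts in any library, and Tppp3 had a within-group SD of 0.194 and 0.218.

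The mean over members of single groups ran from 0.989 to 1.30 of the study mean in the air rats of day 27 at 30 mg/m3 and from 0.482 to 1.19 in those of day 1. Among other cell types, the secretory genes were on the same side of the group median as the cilia genes in 19 of 23 and 29 of 36 libraries. Mesothelial genes, which mark the lung surface, were on the same side in 4 of 21 and 9 of 36. Smooth muscle genes were on the same side in 16 of 20 and 23 of 36, and heart muscle genes in 15 of 21 and 23 of 36. Alveolar type 2 genes were on the same side in 7 of 20 and 19 of 36, alveolar type 1 genes in 6 of 22 and 17 of 36, and cartilage genes in 12 of 21 and 21 of 36. These counts describe libraries that share a sampling step, and no cause was tested.

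**Figure D5:**
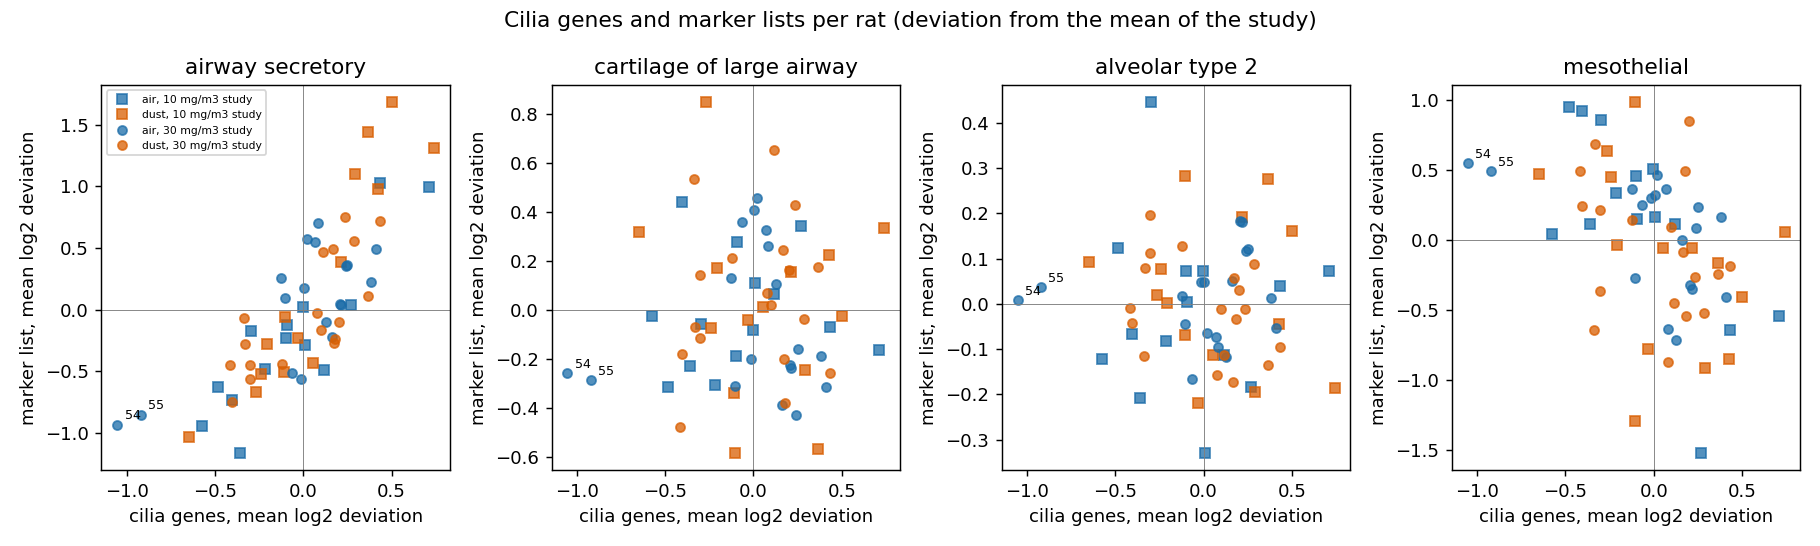
Mean log2 deviation of 4 marker lists in each rat (vertical axes) against that of the cilia genes (horizontal axes). The lists are airway secretory, cartilage, alveolar type 2 and mesothelial. Each point is a rat, and rats 54 and 55 are labelled. Rats low for cilia genes tend to be low for secretory genes, and rats 54 and 55 are at the lower left of that panel.

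Further genes of motile cilia outside the 41 members, among them intraflagellar transport genes, other assembly factors and other axonemal proteins, were taken from a list of 247, of which 153 were tested. Of these, 0 passed in any comparison of dust with air in the main fit. Without air rats 51 and 53 there were 3 at day 1 of 30 mg/m3, all higher, where 877 genes were called over the whole table. Alternatives called up to 2 higher over the mean of the days at 30 mg/m3, and up to 2 higher at day 1 of 10 mg/m3. Over the whole table, alternatives called up to 1014 and up to 795 genes in these comparisons. The median log2 difference of the further genes, from the same libraries, lay on the members' side each time. In the study at 30 mg/m3 it was 0.237 at day 1, with 142 of 153 above 0, where 55.1% of all genes were. The members' median there was -0.0491 without rats 54 and 55, and that of the further genes was not computed without them. At day 7 the further genes had a median of 0.0171 with 91 above 0, where 49.5% of all genes were. At day 27 they had -0.191 with 19 above 0, where 7891 of 15551 genes were. In the study at 10 mg/m3 the medians were 0.17, 0.168 and 0.0106. In air rats at 30 mg/m3, 17 of 153 rose from day 1 to day 27 and 0 fell, where 5.55% of all genes rose and 7.36% fell. The largest were Dlec1 (1.20, adjusted p = 0.002), the assembly factor Dnaaf3 (1.08, adjusted p = 0.000602), Cfap46, a central pair protein (0.99, adjusted p = 0.000541), Tp73, a transcription factor of multiciliated cells (0.96, adjusted p = 0.00952), Kif19 (0.96, adjusted p = 0.00638) and Ttll10 (0.92, adjusted p = 0.00751). Without rats 54 and 55, 12 were called higher, among 25 called in all, where 3994 genes were called over the whole table. Between the concentrations, Ccdc138 passed at day 1 (0.65, adjusted p = 0.0346), where 10.4% of all genes did, and 0 of the list did so without rats 54 and 55.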

How the data were processed

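Lung RNA of 64 rats was sequenced as ribosome-depleted total RNA libraries. Per the submitters' processing notes, bcl2fastq 2.19, Trimmomatic 0.35, HISAT2 2.1.0, SAMtools 1.8, HTSeq 0.6.1 and the Rnor_6.0 build were used, with no role or setting stated. The values are raw counts per gene, as deposited by the authors. Groups were read from the labels. Library totals of 3420235 to 12359518 set the precision of low genes.

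Here genes were kept by filterByExpr (minimum count 10, minimum total 15), libraries were scaled by TMM, and edgeR 4.0.16 (R 4.3.3) quasi-likelihood tests were fitted to the 6 groups of each study, with 15668 and 15551 genes, or to all 64 libraries for the difference between concentrations (16190 genes). P-values were Benjamini-Hochberg adjusted over all genes at 0.05. Alternatives were RLE factors, library totals, no filter, DESeq2 1.42.0, limma 3.58.1 voom, only the 2 compared groups, and leaving out rats. Those on rats 54 and 55 and on summed pairs were chosen after seeing the data.

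The members and lists were chosen with earlier results of these data known. Named were the members that passed, otherwise the 3 with the smallest p, plus Foxj1 and the most abundant member of each role. A deviation is log2(CPM + 0.5) minus the study mean. Dust rats carry higher title numbers than the air rats of the same study and day. Whether these numbers follow an order of handling is not stated. If they do, that order and the exposure cannot be told apart. Promoters were searched in RefSeq sequence on GRCr8, a build other than that of the counts.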

Additional observations from a re-analysis of the deposited data

Results flagged for a closer look

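A rat standing apart from its group was looked for in the levels of 10 members and in the mean over all members. The 10 were Foxj1 and the most abundant member of each other role. Each was checked in each of the 12 groups of 4 to 6 rats by Dixon's ratio at the 95% level, which made 132 checks. Chance alone marks about 1 check in 20, and 7 of 132 were marked. The checks share the same rats and members that vary together, so they are not independent. Hydin was at 144.2 CPM in dust rat 44 of day 7 at 10 mg/m3 (103.3 to 108.2 in the others) and at 79.95 CPM in dust rat 79 of day 7 at 30 mg/m3 (113.6 to 139.9 in the others). Rsph1 was at 23.99 CPM in air rat 1 of day 27 at 10 mg/m3 (10.42 to 12.02 in the others). Ccdc39 was at 35.05 CPM and Tekt1 at 25.9 CPM in air rat 69 of day 7 at 30 mg/m3 (20.23 to 22.62 and 13.5 to 16.13 in the others). Foxj1 was at 40.83 CPM and Dnah12 at 171.2 CPM in air rat 83 of day 27 at 30 mg/m3 (33.11 to 35.76 and 118.6 to 134.2 in the others).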

How the results depend on the processing

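No paired analysis was possible because the groups share no rat numbers. The limits here are the small groups, the bulk tissue, low counts of Spag16, Ccdc151 and Ak8, and the 2 pairs of close libraries; unless stated, the cause of a moved value was not tested.

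Members called stayed at 0 of 40 in the dust comparisons with air under all alternatives except 1 at day 1 of 30 mg/m3 and 1 over the mean of its days, by DESeq2 and without air rats 51 and 53 each time, and in leave-one-out 0 to 1 at day 1 (1 without air rat 53). For air rats at 30 mg/m3 the 8 calls became 14 with voom, 4 with the 2 groups alone, 0 without rats 54 and 55, 1 with summed pairs and 5 to 11 when single rats were left out. Leaving out single rats gave 0 to 1 for air rats at 10 mg/m3 (1 without rat 21) and for the mean difference between concentrations (1 without air rat 1). The members' median moved to -0.0491 at day 1 of 30 mg/m3 and to -0.0233 in its air rats without rats 54 and 55.

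Of the further cilia genes, 0 called at day 1 of 10 mg/m3 became 1 with DESeq2 and 2 without rats 27 and 21. Foxj1 at day 1 of 30 mg/m3 turned from 0.10 to -0.17 without rats 54 and 55 and to -0.00642 with summed pairs, and ran from -0.0213 to 0.243 when single rats were left out. In the same way, at day 27 of 10 mg/m3 Foxj1 ran from -0.443 to 0.226, Ccdc113 from -0.542 to 0.0322 and Ccdc114 from -0.0746 to 0.487, and the difference between concentrations at day 27 ran from -0.606 to 0.0866 for Foxj1.

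Genes called over the whole table moved more. At 10 mg/m3, day 1 (20 genes) gave 11 with RLE factors, 5 with no filter, 365 with DESeq2, 8 with voom, 3 with the 2 groups alone, 795 without rats 27 and 21 and 1 to 1147 with single rats left out. Day 27 (0) gave 1 with the 2 groups alone. The mean (5) gave 21 with DESeq2, 8 with voom, 29 without rats 27 and 21 and 2 to 20 with single rats left out. Dependence on day (0) gave 7 without rats 27 and 21 and 0 to 57 with single rats left out. Air rats (466) gave 268 with no filter, 796 with DESeq2, 0 with the 2 groups alone and 2 to 1467 with single rats left out. At 30 mg/m3, day 1 (0) gave 35 with DESeq2, 877 without rats 51 and 53 and 0 to 220 with single rats left out. Day 7 (10) gave 6 with no filter or voom, 55 with DESeq2, 36 with the 2 groups alone and 0 to 21 with single rats left out. The mean (187) gave 93 with library totals, 107 with no filter, 413 with DESeq2, 1014 without rats 51 and 53, 13 without rats 54 and 55, 6 with summed pairs and 22 to 610 with single rats left out. Dependence on day (0) gave 46 with DESeq2 and 3 without rats 51 and 53. Air rats (2007) gave 1052 without rats 51 and 53, 3994 without rats 54 and 55 and 1068 to 2778 with single rats left out. Between concentrations, day 1 (1678) gave 978 with no filter, 3115 without rats 51 and 53, 119 without rats 54 and 55 and 452 to 2825 with single rats left out. Day 7 (0) gave 14 with DESeq2 and 0 to 67 with single rats left out, and day 27 (0) 0 to 1. The mean (338) gave 163 with library totals, 59 with no filter, 701 with DESeq2, 175 with voom, 1421 without rats 51 and 53, 6 without rats 54 and 55 and 4 to 1046 with single rats left out.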
